A study of Caenorhabditis elegans with 2 samples.

Results

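The Hsp70 and Hsp60 chaperones of Caenorhabditis elegans were examined as chromatin targets of the protein of Y79H2A.3. The set comprised 9 genes of the 19973 protein-coding genes on the nuclear chromosomes: hsp-1, hsp-110, hsp-6, hsp-60, hsp-70, F44E5.4, F44E5.5, hsp-3 and hsp-4. The genes were selected on the signal values and summit positions of their peaks in these same lists, so their values are given as a description and no test was made on them. For each gene, peaks were read from 2000 bp upstream of its start through its end in 8 deposited lists. The 9 regions were 4195 to 8062 bp long, against a median of 4027 bp over all protein-coding genes.

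Whole young adults of strain RW12273, aged 63 hours and synchronised as L1 larvae that were starved after bleaching, were used for anti-GFP chromatin immunoprecipitation. Every animal carried the allele st12273[Y79H2A.3::TY1::EGFP::3xFLAG] III, a CRISPR insertion that tags Y79H2A.3. The study has 1 group of 2 biological replicates, and nothing in the labels says whether the cultures were grown separately. No untagged strain, input or other GFP precipitation was analysed here, and whole animals do not show in which tissue a site was occupied.

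Hsp70 proteins hold unfolded stretches of other proteins in a cycle driven by ATP, J proteins start that cycle, and nucleotide exchange factors such as Hsp110 end it. Hsp60 forms a barrel in mitochondria, closed by Hsp10, in which imported proteins fold. Separate genes serve the cytosol, the mitochondria and the endoplasmic reticulum, and the heat-induced cytosolic genes are controlled by the heat shock factor HSF-1, which binds alternating GAA and TTC units called heat shock elements.

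The 9 genes held 4 peaks of the conservative list, which is the thresholded list made by the submitters from the comparison of both replicates. These peaks lay upstream of hsp-1, of hsp-110, of hsp-60, and between F44E5.4 and F44E5.5, whose shared peak counts for both genes. The sequence at the 3 summits that carry a heat shock element is shown first, on the plus strand of WBcel235 (ce11) from RefSeq, with capitals marking elements of 3 alternating units. For hsp-60 and hsp-110 the 101 bases centred on the summit are given. For F44E5.4 and F44E5.5 most of the interval between the genes is given, because its elements extend beyond the peak.
hsp-60, chrIII:1619003-1619103: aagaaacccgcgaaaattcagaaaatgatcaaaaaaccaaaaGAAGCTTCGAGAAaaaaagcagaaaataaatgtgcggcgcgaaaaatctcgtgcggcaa
hsp-110, chrIII:8447110-8447210: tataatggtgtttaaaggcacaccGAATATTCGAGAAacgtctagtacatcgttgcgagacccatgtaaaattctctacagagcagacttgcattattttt
F44E5.4 and F44E5.5, chrII:11759320-11759619: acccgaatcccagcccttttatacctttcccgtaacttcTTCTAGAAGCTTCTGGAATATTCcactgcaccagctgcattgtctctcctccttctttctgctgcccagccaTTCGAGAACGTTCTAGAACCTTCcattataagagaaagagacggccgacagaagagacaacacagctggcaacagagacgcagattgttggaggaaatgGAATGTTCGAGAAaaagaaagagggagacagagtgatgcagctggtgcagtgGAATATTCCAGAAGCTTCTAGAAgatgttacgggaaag

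The hsp-1 summit is shown for contrast, since no element of this kind lies within 100 bp of it. The lines under it give the 3-unit elements found further away in the 2000 bp upstream of hsp-1, each in 30 bases.
hsp-1 summit, chrIV:17278482-17278582: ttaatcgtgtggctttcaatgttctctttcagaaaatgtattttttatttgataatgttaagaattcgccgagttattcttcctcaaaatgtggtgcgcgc
hsp-1, upstream element, chrIV:17278047-17278076: gtaataaaaGAATCTTCGAGAActcattcc
hsp-1, element near the start, chrIV:17278806-17278835: acgaaattcGAATTTTCTAGAAtcccgcca

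Of the 9 genes, 5 had a conservative peak in their region, where 6.26% of all protein-coding genes did. The pooled list gave the same 5 genes, against 5.70% of protein-coding genes. The list of replicate 1 alone gave 4 of the 9 genes against 2.98% of protein-coding genes, and the list of replicate 2 alone gave 4 of the 9 against 2.57%. Both single lists lacked hsp-110 and held the other 4. By class, the conservative peaks covered both constitutive cytosolic genes, hsp-1 and hsp-110, and 1 of 2 mitochondrial genes, hsp-60. They also covered 2 of 3 stress-induced cytosolic genes, F44E5.4 and F44E5.5, and neither endoplasmic reticulum gene. Because these peaks chose the genes, the counts are given without any reading against the background. In the ranked list of the same comparison, which keeps weak peaks, all 9 genes had a peak, as did 88.4% of protein-coding genes.

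**Figure D1:**
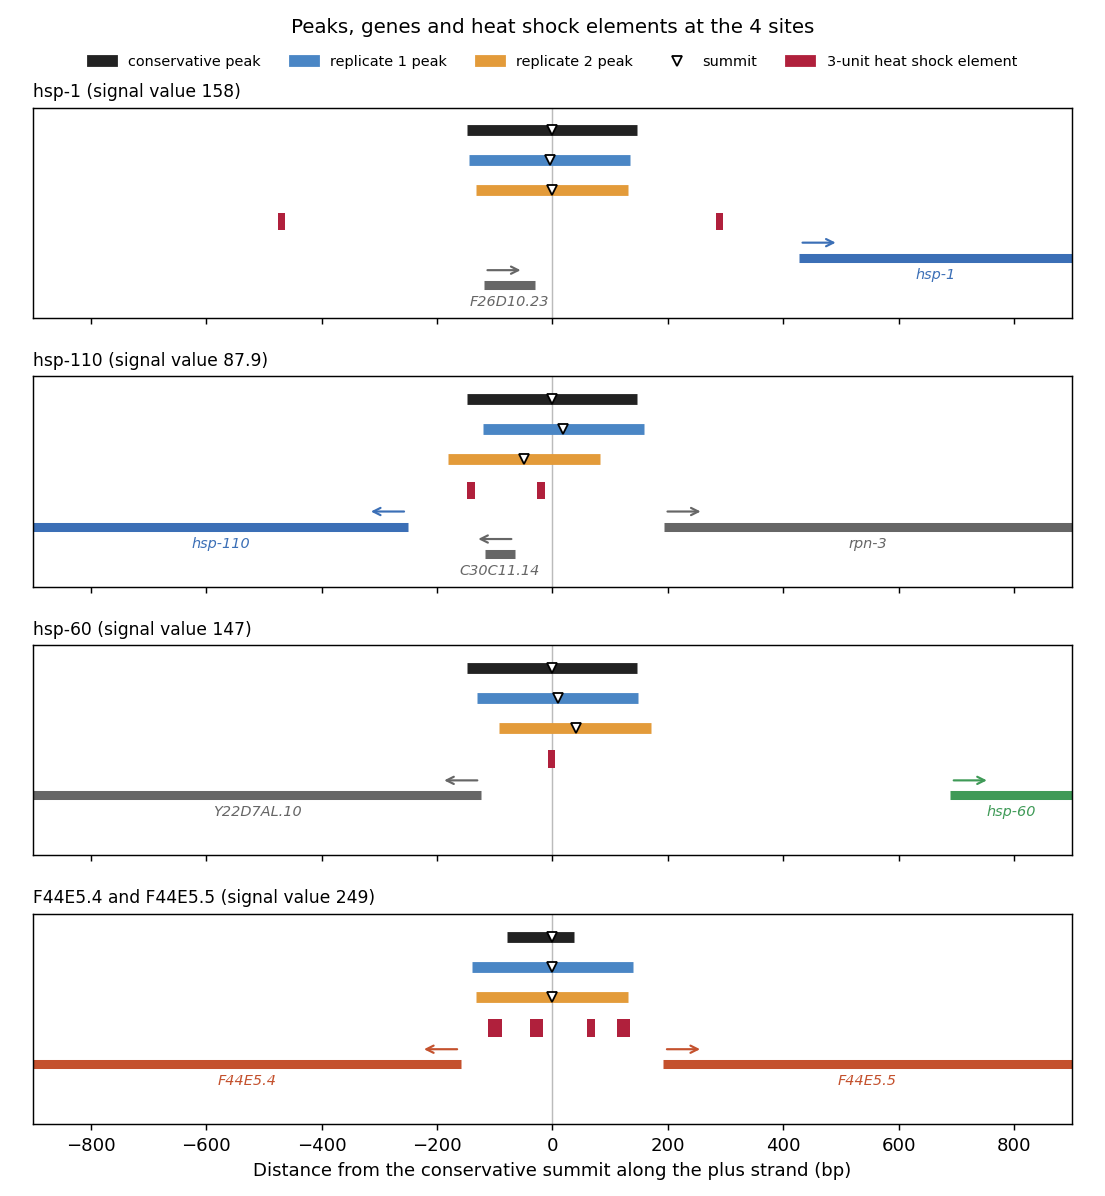
Map of the 4 conservative sites, with distance from the conservative summit in bp on the horizontal axis, peaks as bars with summits as triangles, 3-unit heat shock elements in red, and genes whose start lies within 1000 bp of the summit or whose body holds it. Replicate peaks come from the ranked lists of each replicate. The summits of F44E5.4 and F44E5.5 fall on the same base in every list, and the nearest element at hsp-1 is centred 289 bp from its summit.

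The tallest site of the set was the one between F44E5.4 and F44E5.5, genes for cytosolic Hsp70 proteins that heat induces strongly. F44E5.4 (WBGene00009691, chrII:11757107-11759311, minus strand) and F44E5.5 (WBGene00009692, chrII:11759662-11761861, plus strand) are transcribed away from each other from an interval of 350 bp. The conservative peak, chrII:11759391-11759508, had a signal value of 249 and was rank 11 of 1021. The signal value is the authors' own peak height, on a scale the sources used here do not state, and its median over the conservative list was 82.9, with quartiles of 72.0 and 105.
In the replicate columns the site had 104 in replicate 1 and 139 in replicate 2, a mean of 121.5 ± 24.6 (SD, n = 2). Replicate 2 was the higher by a ratio of 1.33, close to the upper quartile of that ratio over all conservative peaks (1.34, with a median of 1.0996). It was rank 23 of 442 in the list of replicate 1 and rank 12 of 393 in the list of replicate 2. The summit fell on base 11759470 in all 8 lists, 159 bp upstream of F44E5.4 and 192 bp upstream of F44E5.5.

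The F44E5.4 and F44E5.5 genes are near-identical copies, and this bears on where peaks could be seen. Their gene sequences matched at 2193 of 2210 aligned columns (99.2%). Of the 31-base words in the gene bodies, 1.84% in F44E5.4 and 1.89% in F44E5.5 occurred once in the genome, against a median of 100% over protein-coding genes. The conservative peak between the genes was unique at 100% of its words, and the whole interval at 80.6%. How the authors treated reads that fit both copies is not given in the sources used here, so the few ranked peaks in these gene bodies cannot be read as low signal. Each gene had 2 ranked peaks, the shared one and one at its far end, with signal values of 51.6 past the end of F44E5.4 and 26.0 in the 3′ UTR of F44E5.5.

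The interval between F44E5.4 and F44E5.5 held 4 clusters of heat shock elements, which covered 82 of its 350 bp. Runs of alternating units made up 3 of its 4 clusters, each 23 bp long and holding 3 overlapping 3-unit matches, and the remaining cluster was a single element of 13 bp. The cluster nearest the summit, chrII:11759431-11759453, ended 17 bp from it and was the one inside the conservative peak. The cluster at chrII:11759359-11759381, 89 bp from the summit on the F44E5.4 side, was the exact reverse complement of the cluster at chrII:11759582-11759604, 112 bp from it on the F44E5.5 side. The single element, chrII:11759530-11759542, lay 60 bp from the summit. The peak of replicate 1 was wide enough to hold all 4 clusters, and that of replicate 2 held 3.

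hsp-70 (WBGene00002026), the remaining stress-induced gene, had no thresholded peak in any list. It lies on chromosome I at 9320325 to 9322519 on the minus strand, within the gene uggt-2, which runs on the other strand. Its 6 ranked peaks had signal values of 12.02 to 41.6. The tallest, 463 bp inside the gene in a coding exon, had 20.0 in replicate 1 and 11.6 in replicate 2, with a −log10 of the global irreproducible discovery rate (IDR) of 0.197. A −log10 IDR of 2 or more, meaning an IDR of 0.01 or less, marks the conservative peaks, and 5 is the highest value in that list. hsp-70 has 1 heat shock element of 3 units upstream, centred 67 bp before its start, and no ranked peak of the comparison covered it. Unlike the F44E5 pair, its gene body was unique at 99.9% of 31-base words.

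hsp-1 (WBGene00002005, chrIV:17278959-17281330, plus strand) encodes the constitutive cytosolic Hsp70. Its conservative peak, chrIV:17278384-17278679, had a signal value of 158, rank 82 of 1021, with the summit 427 bp upstream of the start. The replicate columns held 76.5 in replicate 1 and 77.6 in replicate 2, a mean of 77.0 ± 0.787 (SD, n = 2). That SD was the smallest of the 4 sites, on values not scaled between the replicates. The −log10 IDR was 4.40. Its rank was 81 of 442 in replicate 1 and 101 of 393 in replicate 2, and the summits of the single lists lay 432 and 427 bp upstream.
The site is not shared with a divergent protein-coding gene. It lies in an interval of 1210 bp between clec-196 and hsp-1, both on the plus strand. The ncRNA gene F26D10.23 (chrIV:17278413-17278502) starts 119 bp before the summit, under the peak.

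A further peak over the start of hsp-1 passed the threshold in replicate 1 only. In the list of replicate 1 it had its summit 97 bp inside the gene, in a coding exon, with a signal value of 40.8, rank 407 of 442 and a −log10 IDR of 2.15. In the comparison of the replicates its columns were 40.8 in replicate 1 and 23.8 in replicate 2, and its −log10 IDR was 1.28, short of the threshold. The other 7 ranked peaks of hsp-1 had signal values of 5.87 to 39.9.

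hsp-110 (WBGene00016250, chrIII:8443910-8446909, minus strand) encodes the cytosolic Hsp110, a relative of Hsp70 that exchanges its nucleotide. Its conservative peak, chrIII:8447012-8447307, was the lowest of the 4, with a signal value of 87.9 and rank 449 of 1021, near the middle of the list. The replicate columns held 42.4 in replicate 1 and 45.1 in replicate 2, a mean of 43.8 ± 1.92 (SD, n = 2). These values hardly differ, yet neither single replicate placed the peak past the threshold. The −log10 IDR was 1.83 in the ranked list of replicate 1 and 1.54 in that of replicate 2, against 2.91 in their comparison.
The summit was 251 bp upstream of hsp-110 in the conservative list, 270 bp in replicate 1 and 202 bp in replicate 2. It lies in an interval of 443 bp shared with rpn-3 (WBGene00004460), the gene of a proteasome lid subunit, whose start is 193 bp from the summit. The start of the ncRNA gene C30C11.14 is closer still, at 65 bp, so the peak cannot be given to 1 of these genes.

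hsp-60 (WBGene00002025, chrIII:1619742-1625803, plus strand) encodes the mitochondrial chaperonin. Its conservative peak, chrIII:1618905-1619200, had a signal value of 147 and rank 100 of 1021, with a −log10 IDR of 4.23. The replicate columns held 67.9 in replicate 1 and 73.1 in replicate 2, a mean of 70.5 ± 3.69 (SD, n = 2). It was rank 114 of 442 in replicate 1 and rank 120 of 393 in replicate 2.
The summit is the farthest of the 4 from its gene, 689 bp upstream of hsp-60, and 679 bp and 649 bp upstream in the lists of replicates 1 and 2. It is nearer to Y22D7AL.10 (WBGene00021248, chrIII:1617151-1618929, minus strand), the gene of Hsp10, the lid of the Hsp60 barrel. The genes of barrel and lid diverge from an interval of 812 bp, and the summit lies 124 bp upstream of Y22D7AL.10.

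hsp-6 (WBGene00002010, chrV:4824124-4826760, minus strand), the mitochondrial Hsp70, had no thresholded peak. Its 8 ranked peaks had signal values of 8.89 to 49.7. The tallest lay in a coding exon 1565 bp inside the gene, with 14.9 in replicate 1 and 23.5 in replicate 2 and a −log10 IDR of 0.383. Its 1 upstream element of 3 units, centred 301 bp before the start, lay under a ranked peak of 29.8 with a −log10 IDR of 0.181. Of the mitochondrial genes, hsp-60 was above hsp-6 in both replicate columns.

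hsp-3 and hsp-4 encode BiP, the Hsp70 of the endoplasmic reticulum, and hsp-4 is the one known as a reporter of the unfolded protein response. For hsp-3 (WBGene00002007, chrX:6089028-6092124, minus strand) the tallest of 7 ranked peaks sat at the promoter, 65 bp upstream of the start, with a signal value of 64.4. It had 40.7 in replicate 1, which is near the values of hsp-110, and 21.2 in replicate 2. Its −log10 IDR was 0.947 in the comparison, and its rank was 670 of 38519 in replicate 1 and 14271 of 45724 in replicate 2. Another ranked peak of hsp-3, 2590 bp inside the gene, had 23.3 in replicate 1 and 31.0 in replicate 2, with a −log10 IDR of 1.25.
For hsp-4 (WBGene00002008, chrII:7350112-7352645, minus strand) the 7 ranked peaks had signal values of 7.22 to 45.4. The tallest, in a coding exon 2346 bp inside the gene, had 13.6 in replicate 1 and 31.5 in replicate 2. Neither gene has a 3-unit heat shock element in its 2000 bp upstream.

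**Figure D2:**
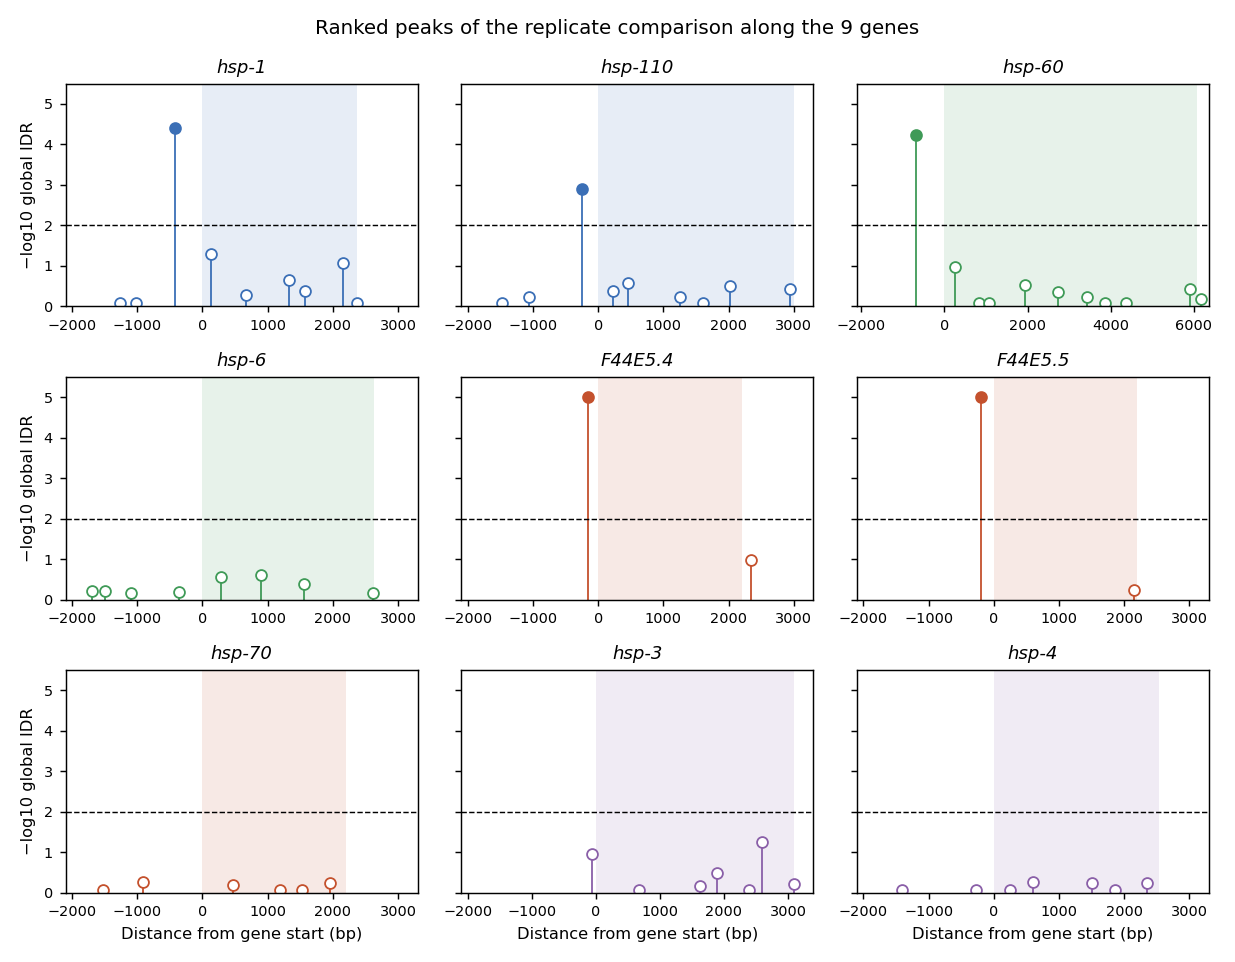
Every peak of the ranked list of the replicate comparison along the 9 genes, with distance from the gene start in bp on the horizontal axis and the −log10 global IDR on the vertical axis. Filled points are conservative peaks, open points are other ranked peaks, shading is the gene body, and the dashed line is the threshold of 2. In hsp-1, hsp-110, hsp-60, F44E5.4 and F44E5.5 a single upstream peak stands above the line, and the next highest peak of any of the 9 genes reaches 1.28.

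The nearest miss of the threshold among genes with no conservative peak was hsp-3, with a highest −log10 IDR of 1.25, and the nearest inside it was hsp-110, with 2.91. The remaining genes without a conservative peak had highest values of 0.610 for hsp-6, 0.267 for hsp-70 and 0.262 for hsp-4. The median over the 17648 protein-coding genes with a ranked peak was 0.373, below hsp-6 and above hsp-70 and hsp-4. A value as high as that of hsp-3 was reached by 12.64% of protein-coding genes, that of hsp-6 by 28.0%, that of hsp-70 by 57.9% and that of hsp-4 by 58.6%. For the genes with a conservative peak these shares were 0.235% for F44E5.4 and F44E5.5, 0.606% for hsp-1, 0.746% for hsp-60 and 2.93% for hsp-110.

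**Figure D3:**
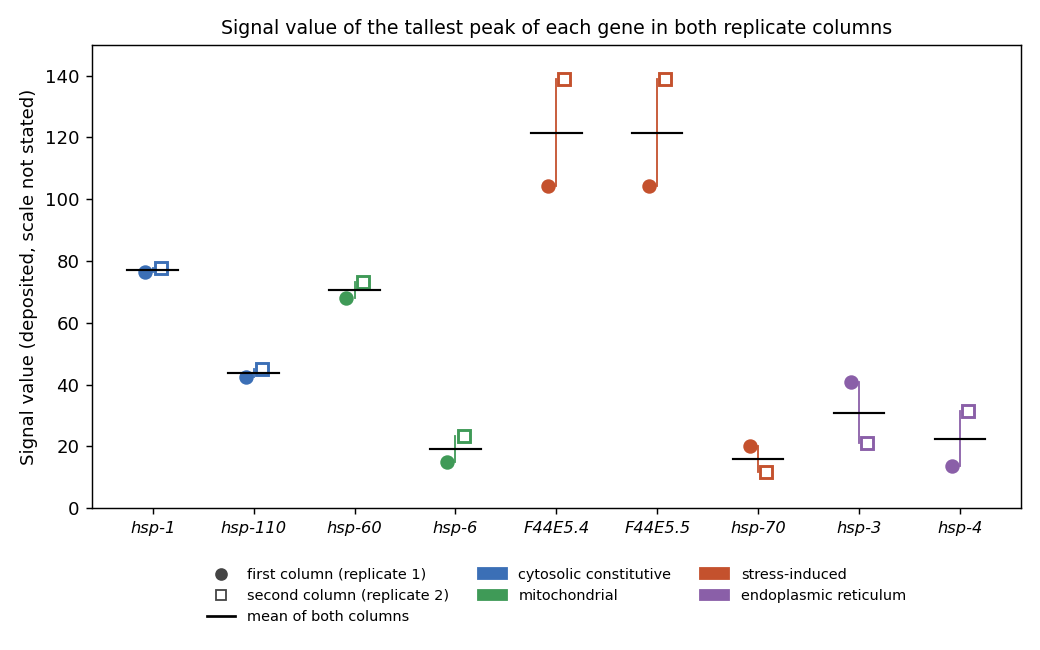
Deposited signal value of the tallest ranked peak of each gene in the first column (filled circle, replicate 1) and the second column (open square, replicate 2), with the mean of both as a black line and colours for the 4 classes. F44E5.4 and F44E5.5 share 1 peak, whose columns lie apart at 104 and 139. hsp-1, hsp-60 and hsp-110 lie below it with closely spaced columns. The columns of hsp-3 (40.7 and 21.2) and hsp-4 (13.6 and 31.5) also lie apart. Conservative peaks passed a threshold on the comparison of both replicates, so close columns at them are not a separate result.

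The order of the 4 sites was F44E5.4 with F44E5.5, then hsp-1, hsp-60 and hsp-110, in the conservative signal value and in each replicate column. The closest neighbours were hsp-1 and hsp-60, with means of 77.0 ± 0.787 and 70.5 ± 3.69 (SD, n = 2 each). hsp-1 was the higher in each column, at 76.5 against 67.9 in replicate 1 and 77.6 against 73.1 in replicate 2. The genes were selected on these values, and with 2 replicates this difference was not tested.
By signal value, the conservative peaks next to hsp-1 were 159 near R03D7.2 above it and 158 near Y54G11A.2 below it. Those next to hsp-60 were 147 near F20D12.12 and 146.6 near Y82E9BR.3, and those next to hsp-110 were 87.97 near F47G9.6 and 87.8 near the pseudogene WBGene00019789. The F44E5 site stood between peaks of 252.5 near tos-1 and 246.9 near rpl-15, a gene of the large ribosomal subunit. Each gene named here is the one whose start is nearest the summit, which need not lie at its promoter. The summit lay 2663 bp past the start of R03D7.2 and 2188 bp past that of tos-1, and the other starts were nearer.

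Among the 4 sites, 3 lay between divergent protein-coding genes (hsp-110, hsp-60 and the F44E5 pair), as did 33.8% of the 556 intergenic conservative summits. The same 3 sites held a 2-unit heat shock element within 50 bp of the summit, defined as GAANNTTC or TTCNNGAA, each of which is its own reverse complement. Such a match lay within 50 bp of 131 of the 1021 conservative summits (12.83%). A 3-unit element, in which the first pattern is followed by NN and GAA or the second by NN and TTC, was also present in these 3 and absent from hsp-1, and 3.72% of all conservative summits held one. These patterns overlap, since every 3-unit element holds 2-unit matches.
The distance from the conservative summit to the centre of the nearest 3-unit element was 2 bp at hsp-60, 20 bp at hsp-110, 23 bp at the F44E5 pair and 289 bp at hsp-1. With the summits of replicate 1 it was 12, 39, 23 and 294 bp in the same order of sites, and with those of replicate 2 it was 42, 29, 23 and 289 bp.

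All 3 of these sites also held TTCGAGAA, a pattern picked after their sequences had been seen, which is a 2-unit match with GA in its middle. It was present within 50 bp of 1.76% of conservative summits. TTCTAGAA was present at 1 of the 4 sites, that of the F44E5 pair, against 2.94% of summits. The 6-base CGCGCC, picked with earlier results of these data known, was found at hsp-60 and at none of the other 3 sites, against 10.4% of summits.
An element at a promoter did not always come with a peak. In the window from 250 bases upstream to 50 downstream of the start, 3-unit matches numbered 7 for F44E5.4, 7 for F44E5.5, 2 for hsp-110, and 1 each for hsp-1 and hsp-70, against 1.97% of all protein-coding promoters with at least 1. The hsp-1 element near the start, centred 138 bp before it, lay in no ranked peak of the comparison. The other hsp-1 element, 897 bp upstream, lay in a ranked peak of 19.03 with a −log10 IDR of 0.0746, against 158 and 4.40 for the hsp-1 peak between them.
Over the whole conservative list, summits with a 3-unit element had a median signal value of 88.8 (n = 38) and summits without one a median of 82.8 (n = 983).

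The base composition of the 4 sites varied. In the 101 bases around the summit the GC content was 34.7% at hsp-1, 37.6% at hsp-110, 38.6% at hsp-60 and 49.5% at the F44E5 site, against a median of 43.6% over all conservative summits (quartiles 36.6% and 50.5%). The peaks of hsp-1, hsp-110 and hsp-60 were 296 bp wide, the usual width in the list, and that of the F44E5 pair was 118 bp wide in the conservative list and 280 and 264 bp wide in replicates 1 and 2.

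The rest of the chaperone network was read in the same way from a list of 81 other genes, which was drawn up with earlier results of these data known. Of these, 15 had a conservative peak (18.5%), against 6.26% of all protein-coding genes. The list of replicate 1 gave 10 genes, against 2.98% of protein-coding genes, and that of replicate 2 gave 10, against 2.57%. These sets differed, with dnj-12 and unc-45 in replicate 1 only and dnj-10 and cct-7 in replicate 2 only. dnj-12 had no conservative peak. The 15 genes with a conservative peak included the Hsp10 gene Y22D7AL.10, 6 of 29 J proteins, which work with Hsp70, and 4 of 12 cochaperones, which serve Hsp70, Hsp90 or myosin. The cytosolic chaperonin, which folds actin and tubulin, had 3 of 8 subunit genes with a peak. Small heat shock proteins had 1 of 12, and Hsp90 genes had 0 of 2, other Hsp70 superfamily genes 0 of 5, and regulators of heat shock and organelle stress 0 of 12.

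**Figure D4:**
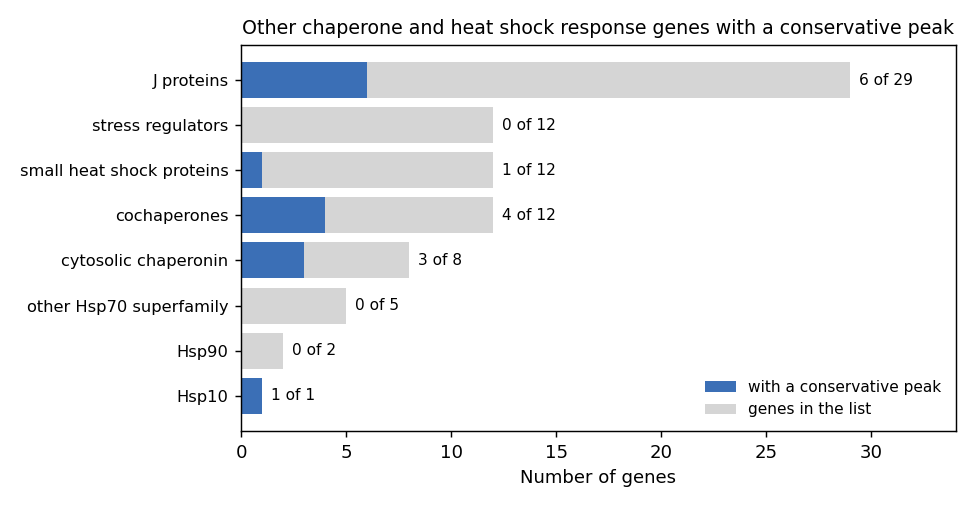
Number of genes in each family of the list of other chaperone and heat shock response genes (grey) and number with a conservative peak in the region (blue). J proteins had 6 of 29, cochaperones 4 of 12, the cytosolic chaperonin 3 of 8 and regulators 0 of 12.

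Among the J proteins, dnj-13 had the tallest peak, with its summit 196 bp upstream, a conservative signal value of 125, and columns of 59.8 and 65.9 in replicates 1 and 2. That summit lay in a noncoding exon of another gene, F54D5.22. dnj-10 (81.0, 173 bp upstream) and dnj-9 (62.5, 269 bp upstream) also had summits just before their starts. For dnj-29 (104), dnj-5 (72.6) and dnj-19 (6.09) the summit lay within another gene or past the end of the gene, so the peak overlaps their regions without being at their promoters.
The cochaperone ahsa-1, which stimulates the ATPase of Hsp90, had a signal value of 109 with its summit 221 bp upstream, columns of 49.99 and 63.5 in replicates 1 and 2, and 2 matches of the 3-unit element. bag-1, a nucleotide exchange factor of Hsp70, had 4 conservative peaks, against 3 peaks in the list of replicate 1 and 2 in that of replicate 2. The tallest, at 113, lay 1513 bp upstream, and the next, at 107.8, lay 125 bp upstream with columns of 50.5 and 60.4 in replicates 1 and 2 and 1 match of the 3-unit element. Another conservative peak of bag-1, at 5.85 and 336 bp upstream, overlapped the one at 107.8 and carried the same columns. Of the 15 genes with a conservative peak, ahsa-1, bag-1 and the Hsp10 gene at the hsp-60 site had such an element within 50 bp of a summit. unc-45, a chaperone of myosin, had 106 just past its end, and cdc-37, which brings kinases to Hsp90, had 52.1 at 1610 bp upstream inside another gene.
Chaperonin subunit peaks lay at 424 bp upstream of cct-8 (119), 461 bp upstream of cct-5 (117) and 1351 bp upstream of cct-7 (79.5). The cct-7 summit lay in the 3′ UTR of another gene, T10B5.4. cct-8 had 69.1 in replicate 1 and 57.5 in replicate 2, and cct-5 had 73.5 and 50.9, so both were higher in replicate 1. cct-7 was higher in replicate 2, with 36.2 in replicate 1 and 46.8 in replicate 2. The sites of hsp-1, hsp-110, hsp-60 and the F44E5 pair had the higher value in replicate 2. Over all conservative peaks the median ratio of replicate 2 to replicate 1 was 1.0996. The ratio was below that median at hsp-1 (1.01), hsp-110 (1.06) and hsp-60 (1.08), and above it at the F44E5 pair (1.33). The small heat shock gene sip-1 had 148 in its 3′ UTR and a further peak of 115.6 at 197 bp inside the gene. No cause of these differences was tested.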

How the data were processed

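Anti-GFP ChIP-seq peaks of 2 biological replicates were analysed from 8 peak lists that the submitters deposited on the ce11 assembly, per the labels and the accompanying notes: 4 thresholded and 4 ranked lists. What aligned the reads, called the peaks and served as control is not given in the sources used here. The deposited signal value was used as the authors' peak height, without rescaling. Lists are scaled separately, so genes were compared within a list. Where the replicate columns of a peak are set side by side, their median ratio over all conservative peaks was 1.0996. The deposited score was used only to check the threshold, and the deposited −log10 global IDR came from the ranked lists. Of the 120 columns in the lists, 66 were not used. The ranked list of the comparison holds both replicates' signal values without naming them. Within 1e-05, the first column equalled the list of replicate 1 at 99.2% of the 1021 conservative peaks, and the second that of replicate 2 at 99.3%. There are no read counts, so depth is unknown and no counting error can be given.

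Peaks were joined to Ensembl release 115 gene models of WBcel235 on the 6 nuclear chromosomes (overlap of at least 1 bp), and sequences were read from the RefSeq genome of that assembly, whose chromosomes held every peak. Joins, and the search for the 3-unit element in its form that begins with GAA, were tested on simulated data. The form that begins with TTC and the other patterns were searched but not tested in this way. Python 3.11.15, numpy 2.4.6, pandas 2.3.3, biopython 1.88 and matplotlib 3.10.9 were used.

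The genes and lists were chosen with earlier results of these data known. Named genes were the 9 genes, genes starting within 1000 bp of their summits or holding them, other listed chaperones with a conservative peak, and the peaks next in signal value. Of the 58 listed names, 6 were not in the annotation; 29 J proteins were added. With 1 group no test was made. Other lists, thresholds, regions and windows were tried as alternatives.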

Additional observations from a re-analysis of the deposited data

How the results depend on the processing

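The count of Hsp70 and Hsp60 genes with a peak, 5 of 9, was 4 with either replicate left out, 4 at an IDR of 0.001 or less (hsp-110 lost in each of these), 4 with 500 bp upstream (hsp-60 lost), and 5 under the other settings tried. The other chaperone genes with a peak, 15, numbered 9 at an IDR of 0.001 or less, 9 among the 511 tallest conservative peaks, and 9 with the summit required in a promoter window. With either replicate left out they numbered 10, though not the same 10 genes. The protein-coding genes with a peak, 1251, numbered 533, 716 and 575 under the same 3 settings and 513 to 596 with a replicate left out. Summits with a heat shock element were 3 of 4, against 12.83% of all conservative summits. They were 3 of 4 within 25 bp (7.93% of all), 4 of 4 within 100 bp (22.6%) and 3 of 4 for the 3-unit pattern (3.72%). With a replicate left out, they were 2 of 4 in the list of replicate 1 and 2 of 3 in that of replicate 2. The single lists lack the hsp-110 peak, and that of replicate 1 holds the further peak over the start of hsp-1. Ranks of single genes came from lists of different lengths and were compared as a percent of each ranked list. The tallest peak of a gene was taken anew in each list, so it was not always the same peak. That of hsp-4 stood in the top 6.70% of the comparison, 63.5% of replicate 1 and 6.25% of replicate 2. These peaks lay 2346, 589 and 2328 bp inside the gene. In replicate 1 the hsp-4 peak 2349 bp inside the gene stood at 65.7%. In the same order hsp-70 stood at 9.58%, 16.7% and 74.2%, with peaks 463, 1962 and 2001 bp inside the gene. hsp-6 stood at 4.56%, 4.70% and 15.4%, with summits 1565, 2708 and 1005 bp downstream of its start. hsp-3 stood at 1.64%, 1.74% and 6.71%, the last value being that of a peak 2599 bp inside the gene. The promoter peak of hsp-3 stood at 31.2% in replicate 2. The 5 genes with a conservative peak stayed in the top 1.55% of every ranked list. The cause of the lower counts was not tested. No paired analysis was possible because the study has 1 group. Depth is unknown, so a missing peak may mean low coverage as well as low signal.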

Other observations

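Ordered by signal value among the 38 conservative peaks with a 3-unit heat shock element within 50 bp of the summit, the F44E5 site (249) came after 3 taller peaks, with signal values of 302, 297 and 290. The hsp-60 site (147) and the hsp-110 site (87.9) stood further down. Peaks of this kind ranged from 63.5 to 302, so the element was found across most of the range of heights, and these values were not tested.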
